A study of Mus musculus with 20 samples.

Results

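The developmental homeobox and paired box factors examined here are 99 of the 23361 gene entries counted in mouse cells that were taken from the embryonic stem cell (ESC) state to the epiblast stem cell (EpiSC) state. They were chosen by symbol alone: names beginning with Hoxa, Hoxb, Hoxc or Hoxd, or with Lhx, Nkx, Dlx, Pax, Msx, Irx, Meis, Pbx or the stem of Six2 and Six4 and a digit. Of 105 names taken by these prefixes, 6 were dropped (Pax6, Six3, Dlx1as, Hoxa11as, Msx1as and Nkx2-2as). The 99 members comprise 39 Hox genes, 56 other protein-coding genes and 4 antisense or opposite-strand transcripts whose names escape the rule's endings (Dlx6as1, Dlx6as2, Pax6os1 and Six3os1). The ESC lines PGK (female) and E14 (male) were followed at 5 stages in 2 separate differentiation experiments called diff2 and diff3. At day 0 the cells grew in 2i medium, which holds ESCs in the naive state, and all later cells grew on fibronectin in N2B27 medium with activin A and Fgf2, which supports EpiSCs. The later stages were day 4, day 10, days 19 to 23 (PGK days 23 and 21, E14 days 21 and 19 in diff2 and diff3) and days 27 to 30 (PGK day 29 in both experiments, E14 days 27 and 30). Each sex is represented by 1 line; effects of sex and of line therefore cannot be told apart.

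Homeobox and paired box genes encode transcription factors that give cells of the embryo their position and fate. Hox genes lie in clusters whose order along the chromosome follows the head-to-tail order in which they are used, and in pluripotent cells they carry repressive polycomb marks together with activating marks. Pbx and Meis proteins, of the TALE class, bind DNA together with Hox and other homeodomain proteins, Lhx1 acts in the streak and the anterior axial tissues of the gastrula, Irx genes pattern the neural plate, and Six2 and its relatives, with Nkx, Dlx, Msx and Pax genes, mark placodes, neural tube, gut, limb and somites.

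Each of the 20 messenger RNA libraries held 2020254 to 26936415 counts, and levels are given as counts scaled to 1000000 counts per library (CPM). The E14 diff3 libraries of day 0 and day 4 were the shallowest, with 3376500 and 2020254 counts, and 3 counts correspond to 0.888 and 1.485 CPM there, against 0.111 to 0.253 CPM in the other libraries. The E14 diff3 library of day 0 had counts for 10401 genes, and the PGK diff3 library of days 27 to 30 had counts for 13349 genes at 21198258 counts; the other 18 libraries had counts for 12837 to 16699 genes. Naive markers summed to 63.3 to 365 CPM in the later libraries and to 4130 to 5720 CPM in the 4 day 0 libraries, and primed markers to 1570 to 3460 CPM in the later libraries and to 115 to 266 CPM at day 0. All comparisons below used edgeR's quasi-likelihood test with Benjamini-Hochberg adjustment over all genes tested, with 2 libraries in each group, and a gene was called at an adjusted p under 0.05. Of the 99 members, 65 had enough counts to be tested in PGK and 44 in E14; the others are described by their levels.

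Sorted by level, 32 members were silent in both lines, that is under 1 CPM in all 20 libraries, and 11 started in both lines, that is were under 1 CPM in both day 0 libraries and reached 1 CPM in both libraries of some later stage. A further 12 were at or above 1 CPM in both day 0 libraries of both lines. The shares over all gene entries were 33.3% silent, 3.71% started and 39.4% on at day 0 in both lines. In PGK alone 37 members were silent, 13 started and 29 were on at day 0, where all entries gave 35.2%, 5.11% and 50.2%. In E14 the counts were 45, 13 and 12, where all entries gave 36.6%, 6.39% and 40.1%. The remaining members changed class between libraries of 1 stage and are called mixed. The E14 classes depended on the shallow libraries: with both left out, an alternative chosen after seeing their depth, 19 E14 members were on at day 0. The part of depth in this shift was not tested.

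No Hox gene of 39 started in either line, where 5.11% of all entries started in PGK and 6.39% in E14. In PGK 15 Hox genes were on at day 0 and so could not start. In the E14 diff3 library of days 27 to 30, 15 Hox genes were at or above 1 CPM, against 0 in diff2. Of the 56 other coding genes, 10 started in both lines, where the share over all entries was 3.71%. The difference between families was not tested. The 10 included Dlx3, Irx1, Irx3, Irx5, Meis3, Msx2, Nkx2-2, Nkx6-1 and Six2. They were joined by the transcript Six3os1. The genes on at day 0 in both lines included Hoxb9, Hoxc4, Irx2, Meis2, Nkx1-2, Nkx6-2, Nkx6-3, Pbx2 and Six4. Among the 32 members silent in both lines were 12 Hox genes, 6 of the 13 Nkx genes, 4 of the 8 Lhx genes and 3 of the 8 Pax genes. Their highest value in any library was 0.974 CPM, reached by Pax2, Hoxb2 and Hoxc11, 18 of them stayed under 0.5 CPM in every library, and Pax4, a factor of pancreatic endocrine cells, and Pax6os1 had no count in any library. Of the 13 starting members in PGK, 8 first passed 1 CPM in both libraries at day 4 and 4 at day 10, while of the 13 in E14, 2 did so at day 4 and 6 at day 10. In the E14 diff3 library of day 4 the 3 counts that a zero allows come to 1.485 CPM, above the threshold of 1 CPM, and the difference in timing was not tested.

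Sequences before the RefSeq start sites are shown for 5 members that were called at days 27 to 30 and whose upstream bases contain 100 or more that lie outside every annotated exon. They come from RefSeq promoter windows on GRCm38.p6, which hold 64 of the 99 members. Capitals mark each CG dinucleotide. Lhx1 (chr11:84525536-84525659, minus strand), Pbx2 (chr17:34592009-34592258, plus strand) and Six2 (chr17:85688275-85688504, minus strand) rose in both lines, and Hoxd9 (chr2:74697587-74697726, plus strand) and Hoxd13 (chr2:74667975-74668224, plus strand) fell in PGK. The Pbx2 run precedes the RefSeq start but lies inside the longer GENCODE gene span, after the first annotated start.
Lhx1: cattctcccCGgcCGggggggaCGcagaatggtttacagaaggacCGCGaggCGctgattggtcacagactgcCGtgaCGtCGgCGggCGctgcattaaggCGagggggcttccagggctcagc
Pbx2: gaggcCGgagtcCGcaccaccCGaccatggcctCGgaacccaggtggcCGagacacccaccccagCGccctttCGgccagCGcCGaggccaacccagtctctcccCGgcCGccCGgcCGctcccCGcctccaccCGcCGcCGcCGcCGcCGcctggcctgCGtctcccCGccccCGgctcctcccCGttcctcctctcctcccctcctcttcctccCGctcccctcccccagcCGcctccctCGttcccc
Six2: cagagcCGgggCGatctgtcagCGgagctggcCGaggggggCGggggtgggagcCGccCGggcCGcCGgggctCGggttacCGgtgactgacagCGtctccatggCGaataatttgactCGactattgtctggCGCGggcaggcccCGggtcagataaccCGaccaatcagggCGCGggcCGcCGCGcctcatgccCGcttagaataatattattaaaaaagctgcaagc
Hoxd9: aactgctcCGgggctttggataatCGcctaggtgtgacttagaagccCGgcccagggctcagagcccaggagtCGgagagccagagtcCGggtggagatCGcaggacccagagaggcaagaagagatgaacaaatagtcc
Hoxd13: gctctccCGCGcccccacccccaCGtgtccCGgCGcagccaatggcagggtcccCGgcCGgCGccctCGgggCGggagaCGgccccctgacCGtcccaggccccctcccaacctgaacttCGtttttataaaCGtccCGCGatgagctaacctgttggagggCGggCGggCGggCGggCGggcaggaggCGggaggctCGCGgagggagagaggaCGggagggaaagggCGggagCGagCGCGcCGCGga
The runs hold 12 CG in 124 bases for Lhx1, 27 in 250 for Pbx2, 24 in 230 for Six2, 6 in 140 for Hoxd9 and 31 in 250 for Hoxd13. The ratio of observed to expected CG was 0.91 for Lhx1, 0.90 for Pbx2, 1.01 for Six2, 0.51 for Hoxd9 and 0.90 for Hoxd13. Over the 250 bases before the start, the median ratio was 0.67 for the 64 members and 0.38 for all 27025 genes in the table. Members silent in both lines had a median of 0.62 (17 genes), members started in both lines 0.70 (7 genes) and members on at day 0 in both lines 0.67 (7 genes). Of the printed runs, Six2 holds TGACAG, the word bound by Meis and Tgif proteins. Among the 64 members, on either strand, TGACAG stood before 11, the homeodomain word TAATTA before 3, the Pbx-Hox word TGATTNAT before 4, the Tcf word CTTTGAT before 2 and the octamer ATGCAAAT before 0. The shares over all 27025 genes were 16.0% for TGACAG, 4.90% for TAATTA, 2.99% for TGATTNAT, 3.23% for CTTTGAT and 1.61% for ATGCAAAT. CTTTGAT ends in the TGAT with which TGATTNAT begins, so both words can share those bases.

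Hox transcripts were highest in day 0 ESCs and low from day 4 on in PGK and, apart from 1 library, in E14. The 39 Hox genes lie in the Hoxa (chr6:52155590-52260880), Hoxb (chr11:96194316-96368256), Hoxc (chr15:102921103-103036852) and Hoxd (chr2:74668310-74765142) clusters of GRCm38. In PGK their summed level was 99.5 and 82.2 CPM at day 0, 9.89 and 11.2 at day 4, 3.21 and 8.44 at day 10, 4.35 and 10.6 at days 19 to 23, and 4.86 and 10.2 at days 27 to 30. Every later PGK library thus lay far below both day 0 libraries. In E14 the sum was 34.7 and 58.3 CPM at day 0, 2.80 and 4.95 at day 4, 5.16 and 3.25 at day 10, 6.91 and 2.50 at days 19 to 23, and 4.37 and 45.0 at days 27 to 30. Only the last E14 diff3 library returned to the day 0 range. In bulk RNA, fewer cells carrying a transcript and less of it per cell cannot be told apart.

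**Figure D1:**
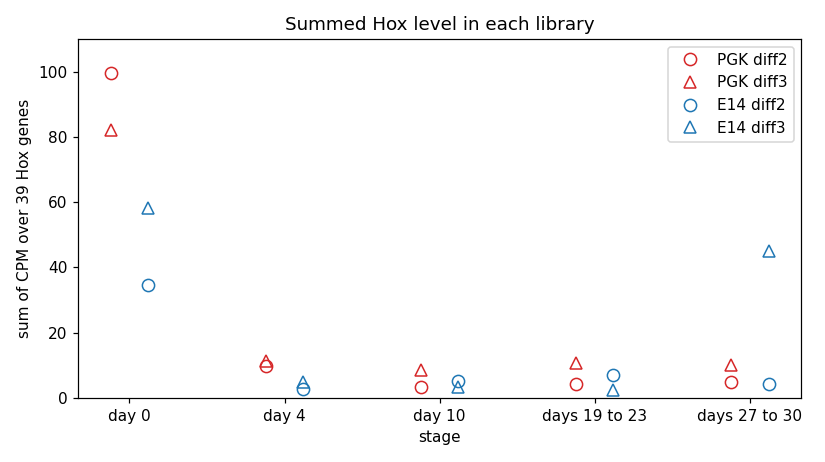
Summed level of the 39 Hox genes (CPM, linear axis from 0) in each library by stage, with circles for diff2 and triangles for diff3, PGK in red and E14 in blue. The later libraries sit between 2.50 and 11.2 CPM, apart from E14 diff3 of days 27 to 30 at 45.0 CPM, and the day 0 libraries between 34.7 and 99.5 CPM.

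The day 0 signal in PGK came mainly from the posterior ends of the clusters. Paralogue groups 9 to 13, which act in the trunk and tail, made up 72.0% and 70.9% of the Hox level at day 0 in PGK, and 15 Hox genes were at or above 1 CPM in both libraries. Hoxc13, a factor of hair and nail, gave 25.8% and 28.9% of the Hox level at day 0, and was at 0.126 and 0 CPM at days 27 to 30 against 25.7 and 23.8 CPM at day 0. The ratio of its counts was 367 in favour of day 0 (95% counting interval 125 to 1780), and its log2 fold change was -8.51 ± 1.39 (SE, adjusted p = 0.00173, edgeR). At day 4 Hoxc13 stood between these levels, at 2.38 and 2.69 CPM, and its change from day 0 to day 4 was not called by edgeR.

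At days 27 to 30 against day 0, edgeR called 0 Hox genes of 26 tested higher and 8 lower in PGK. Of all 15284 genes tested, 13.0% were higher and 12.0% lower. The low-count filter keeps a gene that is high at day 0 alone, so the Hox counts are given as descriptions and are no support for a fall. Besides Hoxc13 the genes called lower included Hoxb9, Hoxc12, Hoxd13, Hoxa10, Hoxb13 and Hoxd9. Hoxb9, used in the thorax and mammary gland, was at 0.168 and 0 CPM against 2.76 and 11.8 CPM at day 0 (log2 fold change -6.39 ± 1.63, adjusted p = 0.0174). Hoxc12, Hoxb13 and Hoxd9 had no count at days 27 to 30, against 3.85 ± 0.291, 3.19 ± 0.418 and 4.28 ± 2.22 CPM at day 0 (SD, n = 2 each). Their values did not overlap between the stages. Against a floor of 3 counts over both libraries they were at least 57.9-fold, 48.0-fold and 64.3-fold lower. That floor covers counting error only. The diff3 library of days 27 to 30 had 356 genes with 1 to 5 counts, against 1769 in diff2, so these folds may not be lower bounds. Hoxa10, which patterns the uterus and limb, was at 0.168 and 0 CPM against 13.6 and 2.99 CPM, and Hoxd13, a digit factor, at 0.251 and 0.0472 CPM against 3.57 and 2.38 CPM. For each of these genes both values of days 27 to 30 lay below both day 0 values.

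The size of this set depends on single libraries. The call for Hoxc13 stood under all 10 alternatives (adjusted p 4.63e-13 to 0.0147). Hoxc12, Hoxb13 and Hoxd9 were no longer called when any 1 of the 4 PGK libraries compared was left out, with adjusted p of 0.0529 to 0.117. Hoxa10, Hoxd13 and Hoxb9 each lost the call without 1 or more of 3 libraries: without the diff2 library of day 0 (Hoxa10 0.18, Hoxd13 0.089), without the diff3 library of day 0 (Hoxb9 0.113) or without the diff3 library of days 27 to 30 (Hoxa10 0.0904, Hoxd13 0.0758, Hoxb9 0.0691). Hoxd13 also lost the call in a joint fit of both lines (0.0599) and Hoxb13 with a term for the library code (0.0539). The diff3 library of days 27 to 30 had counts for 9 of the 39 Hox genes, against 25 in its diff2 partner.

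At day 4 against day 0 in PGK, edgeR called 0 Hox genes of 26 tested higher and 2 lower, both posterior. Of all genes tested, 8.35% were higher and 6.44% lower. The low-count filter applies here too, so these counts are descriptions and no support for a fall. At the last stage Hoxa10 was again called lower, while Hoxc10, at 0.251 and 0.33 CPM there, was not called. Hoxc10, a hindlimb and caudal factor whose exons overlap those annotated to Hoxc5, had no count in either day 4 library, against 3.65 and 5.38 CPM at day 0. It was at least 54.4-fold lower (adjusted p = 0.0176). Hoxa10 was at 0.0701 and 0 CPM against 13.6 and 2.99 CPM (ratio of counts 249, 95% counting interval 44.2 to 9870, adjusted p = 0.0248). DESeq2 called more members lower at this stage, 13 against 2 by edgeR. Over all genes it also called more lower, 1671 against 984. The joint fit of both lines called neither Hoxc10 (adjusted p = 0.0801) nor Hoxa10 (0.0515). Leaving out the day 4 diff2 library gave 0.0763 and 0.0632 for Hoxc10 and Hoxa10, leaving out the day 4 diff3 library gave 0.105 and 0.147, and leaving out a day 0 library gave 0.0666 for Hoxc10 (diff3) and 0.164 for Hoxa10 (diff2).

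In E14, fewer Hox genes were on at day 0 and 11 could be tested. Of these, 0 were called higher and 1 lower at days 27 to 30, where the shares over all genes were 8.73% and 4.99%. At day 4 against day 0 the counts were also 0 and 1, where the shares were 5.16% and 4.40%. Hoxb9 and Hoxc4 were on at day 0 in E14 as in PGK. At days 27 to 30 Hoxb9 was at 0.481 and 2.16 CPM against 1.64 and 8.29 CPM at day 0 (adjusted p = 0.382), and Hoxc4 at 0 and 0.692 CPM against 3.51 and 13.6 CPM (adjusted p = 0.113), and neither passed the test.

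The E14 day 0 libraries differed from each other. The diff3 library had counts for 4 of the 39 Hox genes, among them Hoxb9, Hoxc4 and Hoxd8, and the diff2 library for 29. Hoxc13 was at 13.3 CPM in diff2 and had no count in diff3, where 3 counts would be 0.888 CPM. Hoxd8 was at 0.97 CPM in diff2 and at 21.3 CPM in diff3, which is 36.5% of the Hox level in that library. Posterior genes made up 62.2% of the Hox level in diff2 and 14.2% in diff3. The pattern of posterior genes at day 0 was thus shared by both PGK libraries and the deeper E14 library.

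The E14 diff3 library of days 27 to 30 stood apart from its diff2 partner. It had counts for 38 of 39 Hox genes, against 22, and 15 genes at or above 1 CPM, against 0. Hoxd11, Hoxd4 and Hoxd10 were at 6.59, 4.48 and 4.36 CPM in diff3 and at 0.337, 0.385 and 0.0961 CPM in diff2, whereas Hoxc13 was at 0.163 and 0.0481 CPM. Genes of the Hoxd cluster, not Hoxc13, thus gave the largest levels there. Other markers differed between the same 2 libraries: Pax6 was at 16 and 0.144 CPM in diff3 and diff2, Six3 at 10.3 and 0.433 CPM, Sox1 at 13 and 0.577 CPM, and 9 fibroblast markers summed to 275 and 86.7 CPM. Nes and Tubb3, also neuroectoderm markers, were lower in diff3, at 422 and 24.4 CPM against 439 and 28.0 CPM. The same fibroblast sum was 226 CPM in the E14 diff2 library of days 19 to 23, where the Hox sum was 6.91 CPM. The summed levels of the whole lists were 486 and 468 CPM for 7 neuroectoderm markers and 258 and 222 CPM for 8 primitive streak and mesoderm markers. Their part in the Hox values was not tested. No other library after day 0 had more than 4 Hox genes at or above 1 CPM.

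**Figure D2:**
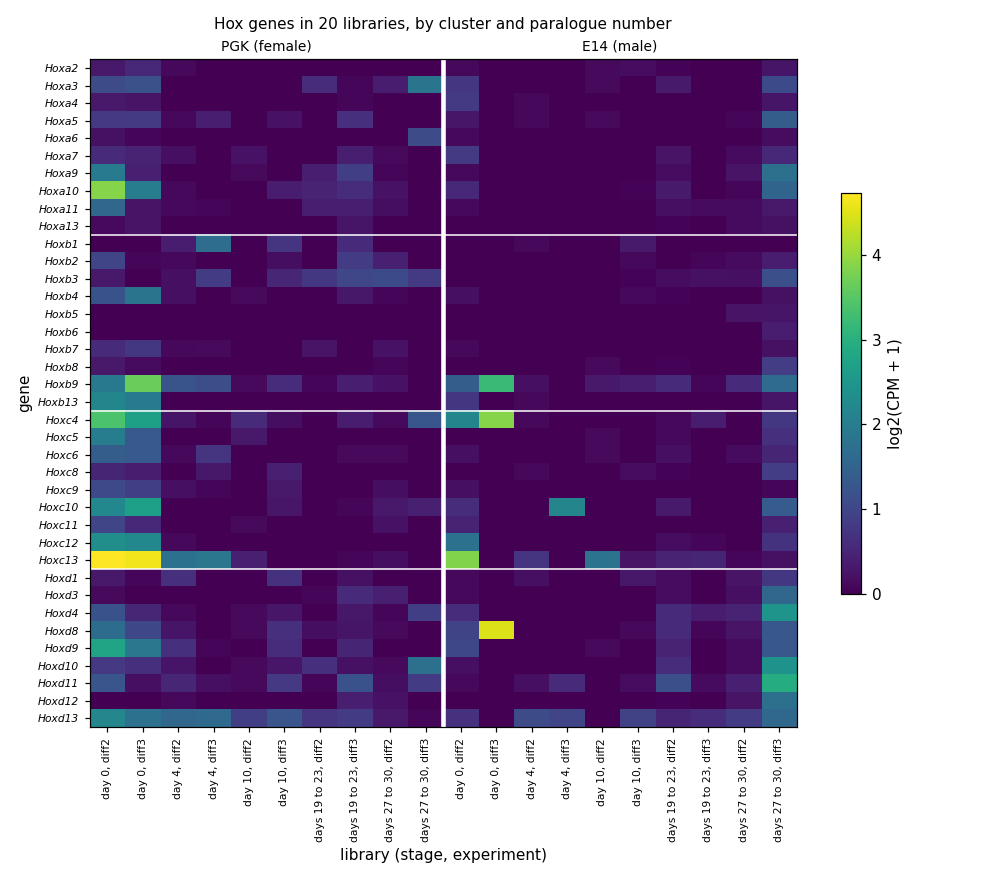
Level of 38 of the 39 Hox genes as log2(CPM + 1) (colour) in the 20 libraries (columns, PGK left and E14 right, by stage and experiment), with rows ordered by cluster and paralogue number. Hoxc13 is brightest in both PGK day 0 libraries, most rows are dark from day 4 on, and the last E14 column is lit most strongly over Hoxd4, Hoxd10 and Hoxd11.

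The TALE cofactors moved in opposite directions within the class. Pbx2 and Pbx3, DNA-binding partners of Hox proteins, and Meis3, a hindbrain factor, rose in both lines, whereas Meis2 fell in PGK. Pbx2 (chr17:34591266-34597400) was at 123 and 137 CPM in PGK libraries of days 27 to 30 against 27.1 and 19.5 CPM at day 0, and at 127 and 132 CPM against 34.9 and 28.7 CPM in E14. Its log2 fold changes were 2.41 ± 0.24 (adjusted p = 0.000117) in PGK and 2.01 ± 0.32 (adjusted p = 0.00288) in E14. All later values lay above all day 0 values in both lines, and both calls stood under every alternative. Part of the Pbx2 exons is shared with Gpsm3 on the same strand. At day 4 Pbx2 was at 49.7 and 54.9 CPM in PGK (1.11 ± 0.23, adjusted p = 0.00994, held under all alternatives) and at 69.4 and 68.8 CPM in E14 (1.14 ± 0.31, adjusted p = 0.0448). The E14 call was lost under 6 of 11 alternatives, among them those with the experiment as a replicate block (0.0563), without both shallow libraries (0.143) and without the diff3 library of day 0 (0.13) or the diff2 or diff3 library of day 4 (0.108 and 0.128).

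Pbx3 (chr2:34171457-34373142) was at 65.7 and 63.6 CPM in E14 at days 27 to 30 against 3.73 and 0 CPM at day 0 (4.81 ± 0.88, adjusted p = 0.00616) and at 49.3 and 25 CPM against 12.8 and 12.3 CPM in PGK (1.48 ± 0.41, adjusted p = 0.0245). The E14 call stood under all 11 alternatives; the PGK call was lost without the diff2 or diff3 library of day 0 (0.0745 and 0.0776) or the diff2 library of days 27 to 30 (0.166) and in the joint fit (0.0913). At day 4 Pbx3 was at 49.0 and 62.4 CPM in E14 (4.62 ± 0.88, adjusted p = 0.00903, and 0.0593 without the diff3 library of day 4) and at 34.3 and 49.2 CPM in PGK (1.67 ± 0.41, adjusted p = 0.0213). The PGK call at day 4 was lost without a day 0 library (0.0652 and 0.0699) or the diff3 library of day 4 (0.106) and in the joint fit (0.0894). Pbx4, a testis-enriched relative, was at 1.37 to 8.23 CPM wherever it was detected and was called in no comparison.

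Meis3 (chr7:16175090-16186504) was under 1 CPM at day 0 and rose in both lines by days 27 to 30. In PGK it was at 9.30 and 9.29 CPM at days 27 to 30 against 0.649 and 0.374 CPM at day 0 (4.12 ± 0.61, adjusted p = 0.000966), after 3.09 and 6.67 CPM at day 4 (3.22 ± 0.59, adjusted p = 0.00521). In E14 it was at 5.67 and 0.99 CPM at day 4 and at 13 and 12.3 CPM at days 27 to 30, against 0.448 and 0 CPM at day 0 (days 27 to 30: 5.33 ± 1.21, adjusted p = 0.0173), and this call was lost without the diff2 (0.0721) or diff3 (0.0654) library of days 27 to 30. Meis2, a limb and forebrain factor, went the other way. It was at 2.22 and 0.0472 CPM in PGK at days 27 to 30 against 36.6 and 81.3 CPM (-5.76 ± 1.24, adjusted p = 0.00771, and 0.0565 with no low-count filter). In E14 it fell at day 4, at 0.0736 and 0 CPM against 6.04 and 28.7 CPM (ratio of counts 165, counting interval 29.3 to 6570, adjusted p = 0.0219), which was lost without the diff2 (0.144) or diff3 (0.137) library of day 4 and without both shallow libraries (0.118). At days 27 to 30 it was at 1.06 and 9.04 CPM in E14 and was not called (adjusted p = 0.353). Meis1, a partner of Hox in blood, was at 2.89 and 3.25 CPM in PGK at days 27 to 30 against 1.38 and 4.11 CPM, so the groups overlapped.

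The Iroquois genes Irx3 and Irx5, neighbours on chromosome 8 that pattern neural plate and heart, rose together. Irx3 (chr8:91798525-91802067, sharing exon bases with Irx3os on the other strand) was at 13.7 and 13 CPM in PGK at days 27 to 30 against 0.487 and 0.421 CPM at day 0 (4.79 ± 0.49, adjusted p = 0.000144). In E14 it was at 9.42 and 10.4 CPM against 0.373 and 0 CPM (5.22 ± 1.16, adjusted p = 0.0154). Irx5 (chr8:92357625-92376286) was at 13.1 and 18.1 CPM in PGK against 0.568 and 0.234 CPM (5.25 ± 0.67, adjusted p = 0.000454) and at 7.11 and 7.49 CPM in E14 against 0.224 and 0 CPM. The ratio of the E14 counts was 40.9 (counting interval 13.9 to 200, adjusted p = 0.0217). In each line both values of days 27 to 30 lay above both day 0 values for each gene. The PGK calls stood under every alternative; the E14 calls were lost without the diff2 library (Irx3 0.0701, Irx5 0.0911) or the diff3 library (0.0734, 0.0957) of days 27 to 30.

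Irx3 was also the only member called between day 4 and day 10, and the step was in PGK. It was at 19.6 and 20.1 CPM at day 10 against 1.82 and 2.10 CPM at day 4 (3.30 ± 0.44, adjusted p = 0.00852). This was 1 of 65 members higher, where 1.05% of all genes tested were higher, and 0 members lower, where 0.465% of all genes were. The call was lost without the diff3 library of day 10 (0.0528) or the diff2 library of day 4 (0.0676). From day 0 to day 4 Irx3 had risen to 1.82 and 2.10 CPM (2.05 ± 0.47, adjusted p = 0.0150, lost without the diff3 library of day 0 or day 4 at 0.0583 and 0.0716 and in the joint fit at 0.0683), and Irx5 to 3.44 and 3.47 CPM (3.09 ± 0.63, adjusted p = 0.0091). In E14 day 4, Irx3 was at 0.221 and 0.495 CPM and Irx5 at 0.736 and 0 CPM, so both PGK libraries lay above both E14 libraries for each gene. In the E14 diff3 library of day 4, 3 counts come to 1.485 CPM, and the difference between the lines at day 4 was not tested. Irx1, from the same family, started in both lines and was at 2.89 and 2.45 CPM in PGK and 0.625 and 2.85 CPM in E14 at days 27 to 30. Irx2 was at 2.40 CPM or more in every PGK library, with 13.8 and 7.45 CPM at days 27 to 30 against 9.74 and 11.7 CPM at day 0.

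Lhx1 (chr11:84518284-84525535), needed for the head organizer, rose in both lines and was barely detected at day 0. It was at 212 and 260 CPM in PGK at days 27 to 30 against 0.162 and 0.0468 CPM at day 0, and at 274 and 116 CPM in E14 against 0.522 and 1.18 CPM. The PGK ratio of counts was 2640 (counting interval 902 to 12800, adjusted p = 0.00105), and the E14 log2 fold change was 8.06 ± 1.03 (adjusted p = 0.000941). The E14 call stood under all 11 alternatives; in PGK it was lost without the diff2 (0.0526) or the diff3 (0.05) library of day 0. The experiments differed at PGK day 4, where Lhx1 was at 1.26 CPM in diff2 and at 37.0 CPM in diff3, against 0.162 and 0.0468 CPM at day 0 (ratio 258, counting interval 87.8 to 1250, adjusted p = 0.0116). The day 4 call was lost without the diff2 (0.171) or diff3 (0.18) library of day 0 and with no low-count filter (0.103). The streak gene T differed in the same way between these 2 libraries, at 28.2 and 474 CPM, as did the 8 streak and mesoderm markers with 90.5 and 762 CPM; their part in the Lhx1 values was not tested.

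In E14 the climb of Lhx1 was spread over more stages. Its levels were 0.522 and 1.18 CPM at day 0, 0.295 and 4.45 at day 4, 23.3 and 18.7 at day 10, 196 and 227 at days 19 to 23, and 274 and 116 at days 27 to 30. In PGK they were 152 and 342 CPM at day 10, 189 and 312 at days 19 to 23, and 212 and 260 at days 27 to 30. The day 10 libraries of E14 thus lay below those of PGK, while the lines overlapped at the last stage. The remaining Lhx genes did not follow: Lhx2, an eye and forebrain factor, fell in PGK to 0.0838 and 0 CPM against 5.44 and 4.11 CPM (ratio of counts 104 in favour of day 0, counting interval 28.2 to 863, adjusted p = 0.0111) under all alternatives. Lhx3, Lhx4, Lhx5 and Lhx8 were silent in both lines. Lhx6, an interneuron factor, was at 13.9 CPM in the E14 diff3 library of day 0 and at no more than 2.17 CPM in any other library.

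**Figure D3:**
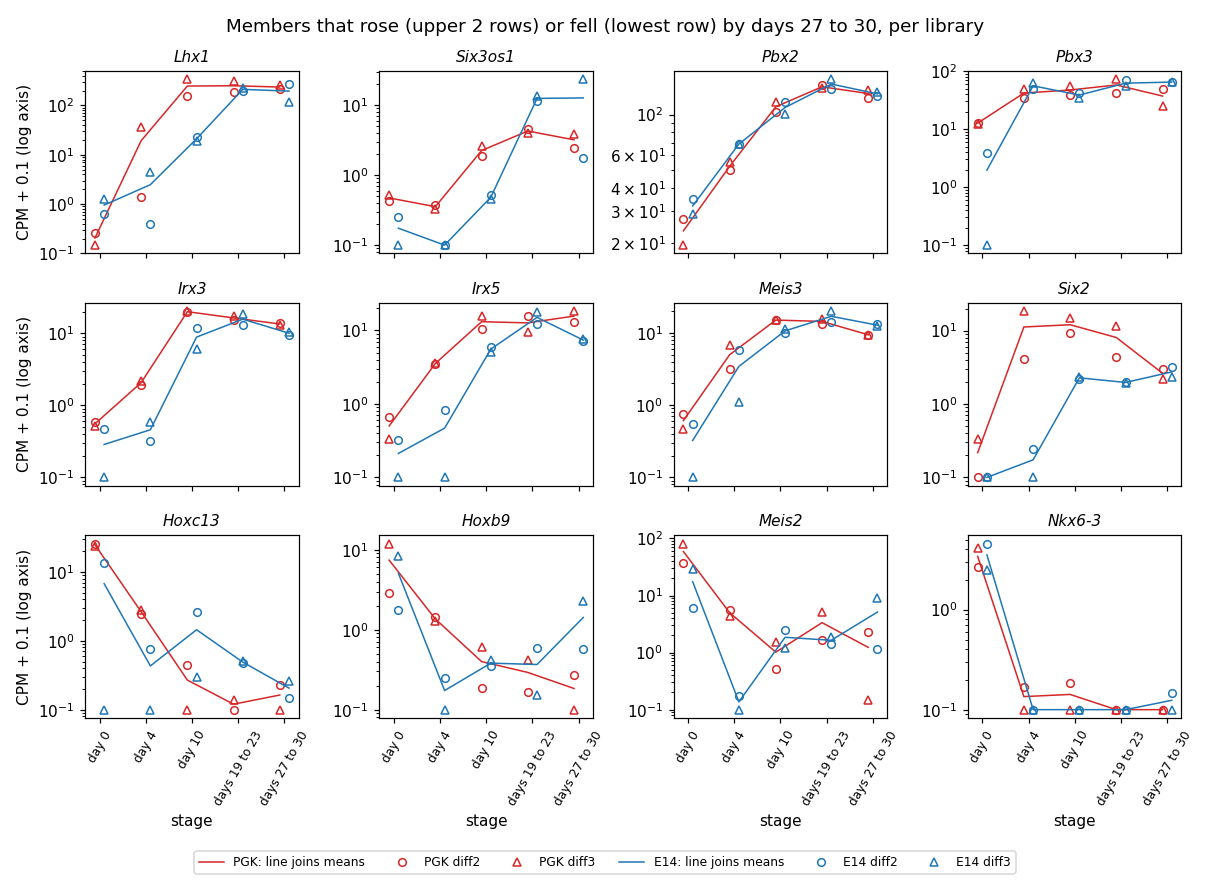
Level of 12 members (CPM + 0.1, log axis) by stage, with each library as a point (circles diff2, triangles diff3) and lines joining the stage means, PGK in red and E14 in blue. The upper 2 rows rose by days 27 to 30 and the lowest row fell in PGK. At day 4 the PGK points of Irx3, Irx5 and Six2 all lie above the E14 points, a difference that was not tested.

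Six2, which keeps kidney progenitors undifferentiated, started in both lines (chr17:85684277-85688274). It was at 2.93 and 2.12 CPM in PGK at days 27 to 30 against 0 and 0.234 CPM (4.07 ± 1.12, adjusted p = 0.0247) and at 3.08 and 2.20 CPM in E14 against no count in either day 0 library, at least 14.8-fold higher (adjusted p = 0.0207). Its highest PGK values came earlier, at 4.00 and 18.2 CPM at day 4 (6.23 ± 1.18, adjusted p = 0.00612, held under all alternatives) and 9.12 and 14.7 CPM at day 10. The call at days 27 to 30 was lost in PGK without the diff2 library of day 0 (0.0862) or either library of days 27 to 30 (0.0684 and 0.0563), and in E14 without either library of days 27 to 30 (0.106 and 0.0859). Six4, a muscle and sensory ganglion factor, was at 20.7 CPM or more in every library and fell in PGK, at 31.9 and 27.8 CPM against 40.3 and 63.2 CPM (-0.88 ± 0.28, adjusted p = 0.0457). That call was lost under 5 of 10 alternatives, including those without the diff3 library of day 0 (0.239) and without the diff2 or diff3 library of days 27 to 30 (0.102 and 0.2).

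Six3os1 (chr17:85600651-85618398), the transcript opposite Six3, rose in both lines. It was at 2.39 and 3.82 CPM in PGK at days 27 to 30 against 0.325 and 0.421 CPM (2.95 ± 0.89, adjusted p = 0.036), and at 1.68 and 23.6 CPM in E14 against 0.149 and 0 CPM (ratio of counts 114, counting interval 31.3 to 940, adjusted p = 0.0287). The exons of the pair overlap on opposite strands, and whether the counting used strand is not given in the sources used here, so reads of Six3 cannot be told apart from it with certainty. The PGK call was lost without the diff2 or diff3 library of day 0 (0.148 and 0.099) or the diff3 library of days 27 to 30 (0.0922), and with 3 other alternatives. The E14 call was lost without the diff3 library of days 27 to 30 (0.257), without both shallow libraries (0.0604), with the experiment as a replicate block (0.0505) and with a term for the library code (0.0521).

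The Nkx family held silent, starting and falling genes. Nkx6-1 (chr5:101658139-101664996), a factor of ventral neural tube and beta cells, had no count at day 0 in either line and was at 1.13 and 0.849 CPM in PGK and 3.41 and 3.50 CPM in E14 at days 27 to 30. It was at least 11.1-fold higher in PGK (adjusted p = 0.0353) and at least 19.3-fold higher in E14 (adjusted p = 0.0208). Its relative Nkx6-3, a stomach factor, went the other way, with no count in PGK against 2.60 and 4.02 CPM at day 0 (at least 49.7-fold lower, adjusted p = 0.0252) and 0.0481 and 0 CPM in E14 against 4.48 and 2.37 CPM (ratio of counts 184 in favour of day 0, counting interval 31.9 to 7370, adjusted p = 0.0398). In PGK the calls for Nkx6-1 and Nkx6-3 were lost without any 1 of the 4 libraries compared (Nkx6-1 0.0563 to 0.129, Nkx6-3 0.0631 to 0.0836), and for Nkx6-1 also with a term for the library code (0.0635). In E14 they were lost without either library of days 27 to 30, at 0.0947 and 0.0996 for Nkx6-1 and at 0.178 and 0.281 for Nkx6-3, and Nkx6-3 also under DESeq2 (0.0943) and with the term for the library code (0.0692). Nkx6-2, a glial and motor neuron factor, was on at day 0 in both lines, and was at 0.577 and 2.36 CPM in E14 at days 27 to 30 against 11.3 and 40.6 CPM without passing the test (adjusted p = 0.0849).

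Nkx1-2, a factor of the caudal epiblast, was on at day 0 in both lines, and in E14 it was at 0.913 and 1.87 CPM at days 27 to 30 against 14.8 and 16.3 CPM (adjusted p = 0.181). Its log2 fold change there was -3.48 in E14 and 0.0 in PGK. The difference between the lines was not called by edgeR (adjusted p = 0.798). Nkx2-2, which acts in the ventral neural tube and islets, passed 1 CPM in both PGK libraries of day 4 (1.12 and 2.92 CPM). Nkx2-1, Nkx2-3, Nkx2-4, Nkx2-5, Nkx2-6 and Nkx3-2, genes of lung and thyroid, gut, heart and cartilage, were silent in both lines.

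The Dlx, Msx and Pax genes stayed low. Dlx3, a placode and trophoblast factor, was at 1.77 and 2.06 CPM at day 10 in PGK and 6.15 and 1.21 CPM in E14. Msx2, a BMP target in limb and neural crest, reached 4.22 and 6.22 CPM at day 10 in PGK, against 0.982 and 0.639 CPM at day 4. Neither was called in any comparison. Pax3, a neural crest and muscle factor, had no count at day 0 in either line; it was at 0.796 and 1.42 CPM in PGK at days 27 to 30, at least 12.4-fold higher (adjusted p = 0.0454), and at 0.769 and 1.79 CPM in E14 (adjusted p = 0.0527). The PGK call was lost under 7 of 10 alternatives, including those without any 1 of the 4 libraries compared (0.0584 to 0.161) and with the replicate block (0.0553). Pax7, its closest relative, was at 1.84 and 0.849 CPM in PGK at days 27 to 30 against 0.0812 and 0 CPM, and at 2.07 and 1.47 CPM in E14 against 0.224 and 0 CPM, without a call.

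**Figure D4:**
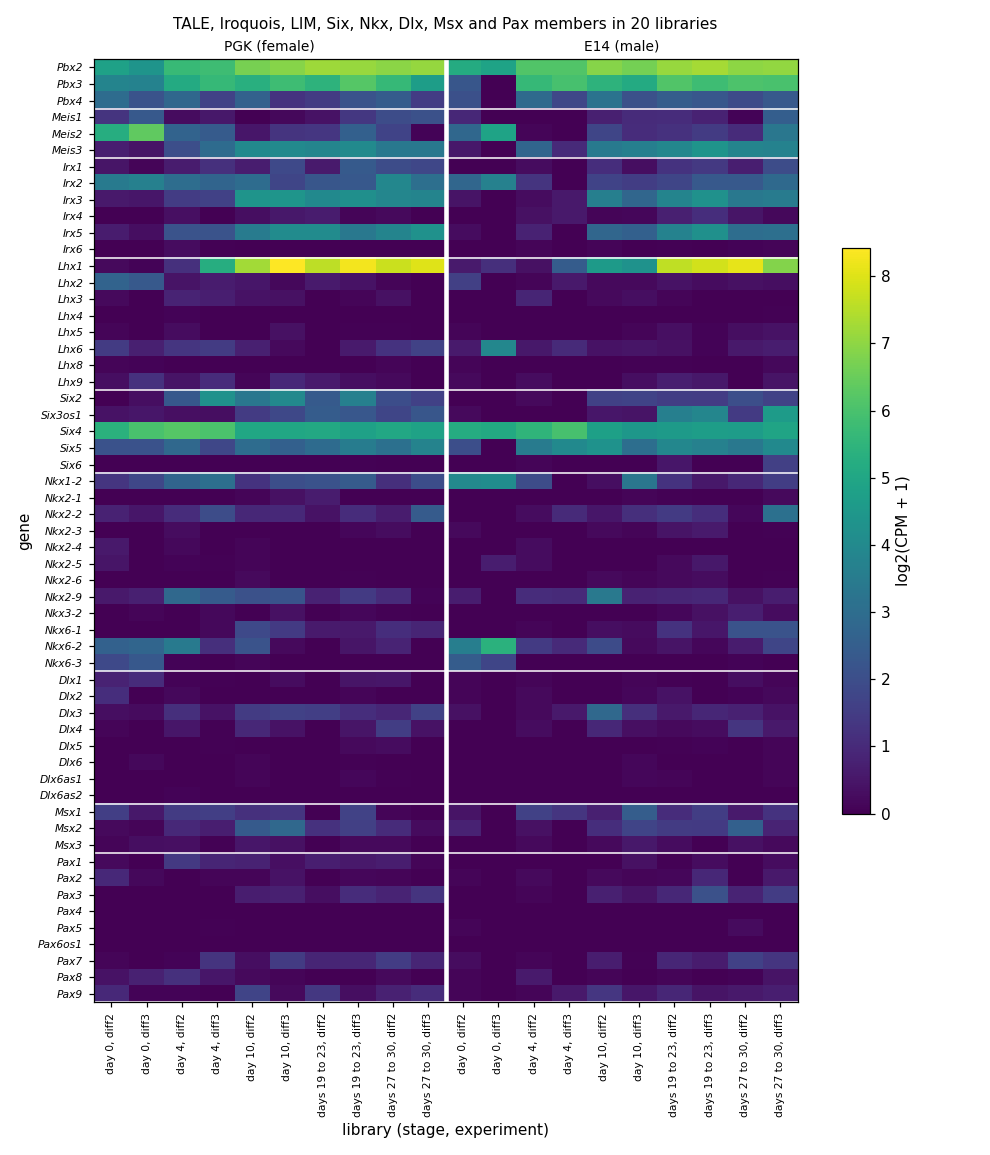
Level of 57 of the 60 members outside the Hox clusters as log2(CPM + 1) (colour) in the 20 libraries (columns, PGK left and E14 right, by stage and experiment), with rows grouped by family. Pbx2, Pbx3, Lhx1, Irx3, Irx5 and Meis3 brighten from left to right in each line, Six4 is bright throughout, and most Dlx, Msx and Pax rows are dark in every column.

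Per kilobase of annotated exon, the level order of the members was led by the same pair in both lines at days 27 to 30. Lhx1 had 52.1 and 63.9 CPM per kilobase in PGK and 67.3 and 28.5 in E14, and Pbx2 had 33.9 and 37.6 in PGK and 34.8 and 36.4 in E14. Lhx1 lay above Pbx2 in both PGK libraries, while in E14 the 2 genes overlapped. Pbx3 lay below both, with 8.06 and 4.08 in PGK and 10.8 and 10.4 in E14. At day 0 the PGK order was led by Hoxc13 with 10.4 and 9.66 CPM per kilobase, ahead of Pbx2 with 7.45 and 5.34, without overlap. In E14 at day 0 the highest mean was that of Nkx6-2, with 5.90 and 21.2, a range that took in Pbx2 with 9.59 and 7.89.

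In counts, the longest comparison gave the most calls. At days 27 to 30 against day 0, 11 members were higher and 12 lower of 65 tested in PGK, where 13.0% and 12.0% of all genes tested were higher and lower, and 10 were higher and 2 lower of 44 in E14, where the shares were 8.73% and 4.99%. The members called came to 16.9% higher and 18.5% lower of those tested in PGK and to 22.7% and 4.55% in E14; since the low-count filter keeps a gene that is high at only 1 stage, these shares are given as descriptions. At day 4 against day 0, 8 were higher and 2 lower in PGK (all genes 8.35% and 6.44%) and 3 were higher and 2 lower in E14 (all genes 5.16% and 4.40%). At day 10 against day 4, 0 members were called by edgeR in E14, where 0.145% of all genes were higher and 0.0414% lower; 8 of 44 had an unadjusted p under 0.05, and DESeq2 called 4, Irx3, Irx5 and Lhx1 higher and Six4 lower. At days 27 to 30 against day 10, edgeR called 0 members and 0.0% of all genes in either direction and either line. There 7 members in PGK and 6 in E14 had an unadjusted p under 0.05, and DESeq2 called 0 members in PGK and 2 in E14, Lhx1 and Six3os1, both higher. Over all genes DESeq2 called 11 higher and 15 lower in PGK and 56 and 29 in E14 there. At day 10 against day 4 it called 385 and 127 in E14. Leaving out the PGK diff3 library of days 27 to 30 lowered the PGK count against day 0 to 7 higher and 3 lower, and leaving out 1 of the PGK day 0 libraries lowered it to 10 or 11 in all.

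All 12 members called in E14 at days 27 to 30 were also called in PGK and in the same direction, 10 higher and 2 lower. Among them Irx3, Irx5, Lhx1, Meis3, Nkx6-1, Pbx2, Pbx3, Six2 and Six3os1 rose and Nkx6-3 fell. The 12 made up 100% of the E14 calls and 52.2% of the PGK calls. Over all genes tested, 1586 were called in both lines in the same direction, which is 79.7% of the E14 calls and 41.4% of the PGK calls, and the difference between members and all genes was not tested. Of the other members called in PGK, Hoxc13 was at 0.0481 and 0.163 CPM in E14 against 13.3 and 0 CPM (adjusted p = 0.091). Hoxd13 had opposite signs, with -4.32 ± 1.19 on the log2 scale in PGK and 1.83 ± 1.58 in E14. The difference of the changes itself, PGK minus E14, was called by edgeR for 0 of 65 members, where 0.0509% of 15732 genes tested were called; 17 had an unadjusted p under 0.05, led by Pbx3 (-3.25 ± 0.90, adjusted p = 0.422), which was the 1 member DESeq2 called. Without the E14 diff2 library of day 0 the shallow library is alone in its group. The median difference over all genes then moved from -0.205 to -0.946 on the log2 scale, so that fit gives no result about the members.

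**Figure D5:**
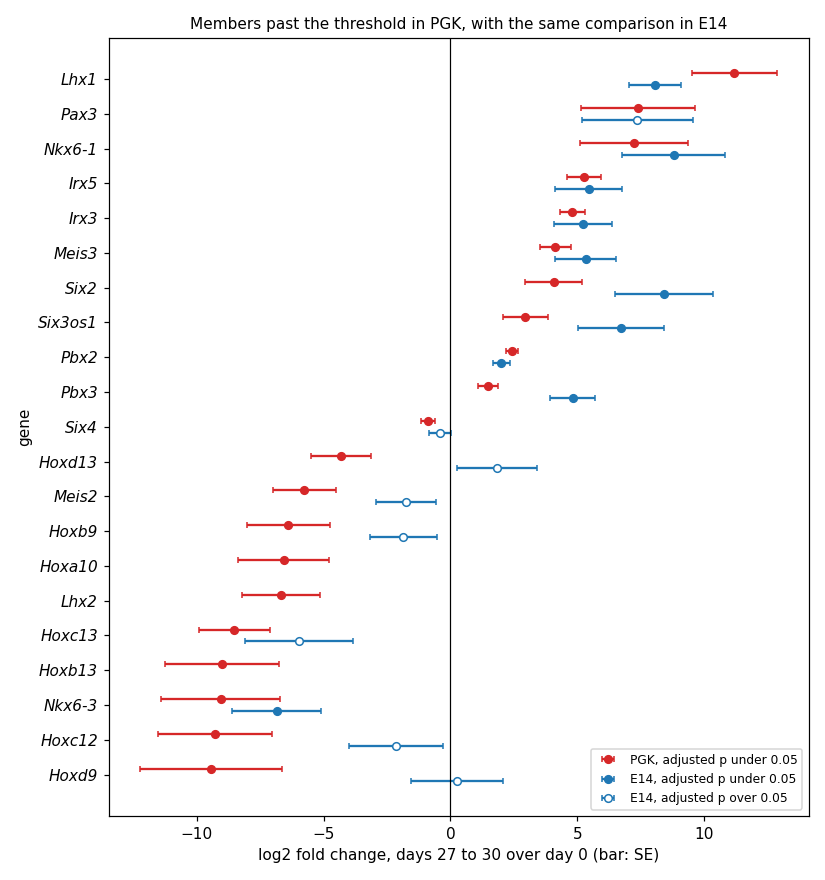
log2 fold change with its SE at days 27 to 30 over day 0 for 21 of the 23 members called in PGK, with PGK (red) above E14 (blue) in each row, filled where the adjusted p was under 0.05; a row without a blue point was not tested in E14. Members that rose in PGK lie on the same side in both lines, while Hoxd9 and Hoxd13, which fell in PGK, lie above 0 in E14 without a call; where a stage had no count the fitted value depends on the prior count and is not a bound.

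Genes that regulate or partner these factors were followed in 8 lists. For every list, the shares of all genes tested at days 27 to 30 were 13.0% higher and 12.0% lower in PGK. In E14 they were 8.73% and 4.99%. At day 4 they were 8.35% and 6.44% in PGK and 5.16% and 4.40% in E14. The medians over all genes at days 27 to 30, for every list, were -0.06 in PGK and 0.19 in E14. No list was tested against these values. Among 29 polycomb genes, edgeR called 3 higher and 6 lower in PGK and 1 higher and 3 lower in E14 at days 27 to 30 against day 0, with list medians of -0.63 and -0.28 on the log2 scale against -0.06 and 0.19 over all genes tested. Mtf2, a subunit that brings polycomb complex PRC2 to CG-rich DNA, was at 193 and 195 CPM in PGK against 441 and 699 CPM at day 0 (-1.63 ± 0.25, adjusted p = 0.00117) and at 208 and 230 CPM in E14 against 777 and 462 CPM (-1.52 ± 0.37, adjusted p = 0.0214, lost without the diff2 library of day 0 at 0.0546 or the diff2 or diff3 library of days 27 to 30 at 0.162 and 0.13). Suz12, a core PRC2 subunit, fell in PGK to 463 and 370 CPM against 681 and 765 CPM (-0.88 ± 0.21, adjusted p = 0.0133, and 0.119 without the diff3 library of days 27 to 30). At day 4, 4 polycomb genes were lower and 0 higher in PGK, and 0 were called in E14. Of 9 trithorax and demethylase genes, 1 was higher and 4 lower in PGK and 0 and 2 in E14 at days 27 to 30, with list medians of -0.24 and 0.02. Wdr5, a shared subunit of the activating complexes, was at 177 and 181 CPM in PGK against 752 and 533 CPM (-1.92 ± 0.23, adjusted p = 0.000273) and at 203 and 181 CPM in E14 against 645 and 669 CPM (-1.78 ± 0.34, adjusted p = 0.0079, lost without the diff2 or diff3 library of days 27 to 30 at 0.0641 and 0.0996). At day 4, 0 were higher and 3 lower in PGK and 0 and 1 in E14.

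Among 16 posterior signals and factors that act on Hox genes, 6 were higher and 1 lower in PGK and 5 and 1 in E14 at days 27 to 30, of 14 and 13 tested, with list medians of 2.66 and 4.02 (3.05 in E14 with genes absent from 1 stage set at their bound). At day 4, 6 were higher and 0 lower in PGK and 2 and 1 in E14. Fgf8, a streak and tailbud ligand, was at 33.1 and 42.7 CPM in PGK against 1.06 and 0.327 CPM (5.80 ± 0.57, adjusted p = 0.000108) and at 48.5 and 25 CPM in E14 against 0.149 and 0 CPM (ratio of counts 300, counting interval 82.9 to 2480). Cyp26a1, which breaks down retinoic acid, was at 191 and 270 CPM in PGK and 325 and 143 CPM in E14 against 1.95 or less at day 0; the PGK call was lost without the diff3 library of day 0 (0.0585). The gene that fell was Cdx1, a caudal factor that activates Hox genes. It had no count at days 27 to 30 in either line, against 5.52 and 3.27 CPM in PGK and 34.4 and 30.5 CPM in E14 at day 0, and was at least 66.0-fold lower in PGK (adjusted p = 0.0143, and 0.0614 without the diff2 library of day 0) and at least 491-fold lower in E14 (adjusted p = 0.00351). None of the 4 last libraries thus held Cdx1 transcripts and all 4 day 0 libraries did.

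Among partners of the LIM factors and of Six2 and its relatives, most calls were higher. Of 14 LIM partners, 5 were higher and 1 lower in PGK and 5 and 0 in E14 at days 27 to 30 (4 and 0 in each line at day 4), with list medians of 2.02 and 2.12. Ssbp3, part of the Ldb1 complex through which Lhx1 acts, was at 208 and 224 CPM in PGK against 48.3 and 52.5 CPM (2.02 ± 0.18, adjusted p = 7.0e-05) and at 239 and 204 CPM in E14 against 42.3 and 56.3 CPM (2.18 ± 0.31, adjusted p = 0.00153). Of 6 Eya and Dach genes, partners of Six2 and its relatives, Eya2, Eya4 and Dach1 rose in both lines at days 27 to 30 and Eya1 fell in both at day 4; the list medians at days 27 to 30 were 2.99 in PGK and 3.17 in E14 (2.21 with genes absent from 1 stage at their bound). Eya2, a coactivator phosphatase, was at 18.8 and 13.2 CPM in PGK against 0.487 and 0.140 CPM (5.67 ± 0.78, adjusted p = 0.000655), and Eya1, its relative, was at 0.912 and 1.96 CPM at PGK day 4 against 6.82 and 39.7 CPM (-4.06 ± 0.91, adjusted p = 0.0139). In E14 the call for Dach1 was lost under 7 alternatives, including those without any 1 of the 4 libraries compared (0.0681 to 0.157), and that for Eya4 without the diff2 or diff3 library of days 27 to 30 (0.0855 and 0.0591). The PGK call for Eya1 was lost without the diff3 library of day 0 (0.0865) or the diff2 library of day 4 (0.0792). Of 5 other TALE genes, Mkx, a tendon factor, was higher and Pknox1, a Pbx partner, lower in PGK at days 27 to 30, and 0 were called in E14 (list medians -0.46 and -0.47). The call for Mkx was lost without the diff2 library of day 0 (0.111) or either library of days 27 to 30 (0.0966 and 0.0502), and that for Pknox1 without the diff3 library of day 0 (0.0786) or of days 27 to 30 (0.112). Of 5 genes of the Groucho family, 0 were higher at day 4 or at days 27 to 30, with list medians of 0.41 in PGK and -0.06 in E14 at days 27 to 30. No Tle gene was called in either direction in these comparisons. Aes was lower in PGK at days 27 to 30, at 81.1 and 79.2 CPM against 293 and 133 CPM (-1.49 ± 0.35, adjusted p = 0.0124), and in both lines at day 4. Its call at days 27 to 30 was lost without the diff2 library of day 0 (0.0817) or the diff2 or diff3 library of days 27 to 30 (0.0644 and 0.0813), and the E14 call at day 4 without the diff2 or diff3 library of day 4 (0.102 and 0.113).

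Homeobox genes outside the symbol rule held rising and falling genes. The calls for the 2 named here at days 27 to 30 stood under all alternatives. Of 39 listed, 7 were higher and 2 lower in PGK (27 tested) and 6 and 1 in E14 (17 tested) at days 27 to 30, with list medians of 1.55 and 2.84, and 3 and 1 in PGK and 2 and 1 in E14 at day 4. Otx2, a factor of the epiblast and anterior neuroectoderm, was at 265 and 238 CPM in PGK against 34.7 and 63.1 CPM (2.28 ± 0.36, adjusted p = 0.00133). Alx1, a craniofacial factor, was at 9.34 and 5.66 CPM in PGK against 0.0812 and 0 CPM. In both genes the later libraries all lay above the day 0 libraries.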

How the data were processed

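Messenger RNA was sequenced from stranded libraries of the ESC lines PGK and E14, per the labels' protocols. The deposited files hold raw counts per gene, which the authors made before deposit; the submitters' processing notes name CASAVA 1.8.2, Cuffdiff, DESeq2 and GRCm38/mm10, and the sources used here do not give the aligner, the annotation or the use of strand in counting. The deposited normalized and transformed tables were not used. Of 23361 entries per table, 27 have names that a spreadsheet had turned into dates and 4 share a name. Libraries held 2020254 to 26936415 counts.

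Members were found by symbol; 97 matched GENCODE M21 on GRCm38 by symbol and 2 through RefSeq synonyms, and lengths are exon unions of GENCODE M21. The members and lists were chosen with earlier results of these data known. Comparisons used edgeR 4.0.16 (quasi-likelihood test, TMM, R 4.3.3, limma 3.58.1), with the 10 libraries of a line in 1 fit, filterByExpr at a minimum count of 10 and Benjamini-Hochberg adjustment over all genes tested; the difference between lines was fitted over all 20. Both replicates of a group are the experiments diff2 and diff3. Deviations of libraries of the same experiment correlated by -0.082 to 0.463 in PGK and -0.227 to 0.232 in E14 over 10 pairs of stages each, and the pairing comes from the labels' experiment names. The fits were tested on simulated data. Ratios of counts with 1 to 3 counts in a group have exact 95% intervals, and a group without counts was set to 3 counts over its libraries. Intervals and floors cover counting error only. The PGK diff3 library of days 27 to 30 and the E14 diff3 library of day 0 had counts for 13349 and 10401 genes. Where a fold given as at least rests on zeros in these libraries, it may not be a lower bound.

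Values are named for up to 6 called members per comparison and direction with the smallest adjusted p, for the member with the highest mean CPM of each family, for members on at day 0 or started in both lines, and for up to 2 genes of each partner list in each comparison with day 0; further members named were chosen after their values were seen. Alternatives were DESeq2 1.42.0, RLE size factors, no low-count filter, the experiment as a replicate block, a term for the library code that some titles carry, a joint fit of both lines, each library left out in turn, and class thresholds of 0.5 and 2 CPM. Tables and figures used Python 3.11.15. Some members and partner genes that meet these rules are not reported by name here and are counted in the totals only.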

Additional observations from a re-analysis of the deposited data

How the results depend on the processing

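Of 526 values of called members under the alternatives, 401 kept direction and call, 125 lost the call and 0 reversed. With the experiment as a replicate block, 2 members were called in PGK at day 10 against day 4 (1 without the block) and 3 in E14 at day 4 against day 0 (5 without), and the calls that the block ended are given beside their genes. Over all genes the block gave 238 higher and 113 lower in PGK (160 and 71 without) and 680 and 594 in E14 (748 and 638). DESeq2 called more: 22 (10 by edgeR) in PGK at day 4, 7 (1) at day 10 against day 4, 13 (5) in E14 at day 4, 4 (0) at day 10 against day 4, 2 (0) at days 27 to 30 against day 10, 21 (12) at days 27 to 30 against day 0, and 1 (0) for the difference between lines. Over all genes it called 1844 higher and 1671 lower in PGK at day 4 (1276 and 984 by edgeR). At day 10 against day 4 it called 504 and 344 there (160 and 71). For E14 the numbers were 1527 and 1329 at day 4 (748 and 638) and 385 and 127 at day 10 against day 4 (21 and 6). At days 27 to 30 they were 56 and 29 against day 10 (0 and 0) and 2154 and 1443 against day 0 (1266 and 724). For the difference between lines they were 42 and 65 (3 and 5). The joint fit called 6 in PGK at day 4, and 9 in E14 at day 4 and 1 at day 10 against day 4. Over all 15732 genes it called 1000 higher and 638 lower, 1358 and 1065, and 175 and 33, in that order. Without the low-count filter the counts were 3 in PGK at day 10 against day 4 and 8 in E14 at day 4, and with the term for the library code 4 in PGK at day 10 against day 4. The numbers over all genes were 288 higher and 151 lower, 921 and 761, and 413 and 242, in that order. The causes of these shifts were not tested. Alternatives chosen after seeing the data left out both shallow E14 libraries, which gave 2 calls at day 4, 1 at day 10 against day 4 and 19 members on at day 0 in E14, or the diff3 libraries of days 27 to 30, which moved no class count by over 1.5 times.

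Leaving out 1 library at a time gave 6 to 8 calls in PGK at day 4, 0 to 2 at day 10 against day 4 and 10 to 14 at days 27 to 30 against day 0. In E14 it gave 0 to 14 at day 4 and 3 to 18 at days 27 to 30 against day 0, with the highest counts when the diff2 library of day 0 was left out, and 0 to 6 for the difference between lines. Where 1 library is left in a group it was assumed to vary like the other groups. Without the E14 diff2 library of day 0, the median log2 change over all genes at days 27 to 30 moved from 0.188 to 0.869 in E14. The counts without that library are thus no result about the members. Within 1 experiment, 19 to 22 members started in PGK and 20 to 33 in E14, and 15 to 19 were on at day 0 in E14, because a single library then sets the class. At 2 CPM 8 members started in E14. Low values in E14 are limited in the shallow libraries of day 0 and day 4, where 3 counts equal 0.888 and 1.485 CPM. The day 0 library had counts for 10401 genes, fewer than the 12837 of the shallower day 4 library. The 3-count floor covers counting error only and may not bound the zeros there. The part of depth in these zeros was not tested. Over the 8 partner lists, of 1100 values of called genes in the comparisons with day 0, 929 kept direction and call, 171 lost the call and 0 reversed. In PGK at day 4 the lists held 24 calls, 40 under DESeq2, 38 with the term for the library code and 18 to 22 with 1 library left out. In E14 at day 4 they held 13, 31 under DESeq2, 28 in the joint fit and 6 to 28 with 1 library left out. At days 27 to 30 leaving out 1 library gave 28 to 36 calls in PGK (42 with all) and 11 to 40 in E14 (27), lowest without a library of days 27 to 30.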
